A study of Mus musculus with 62 samples.

Results

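White adipose tissue from mice carrying melanoma cells that cause cachexia (CAC) was compared with that of mock-injected mice (Con), both at 4 weeks after injection. The comparison holds 10 of the 62 RNA-seq libraries of the study, 5 CAC and 5 mock, chosen by the arm, week and replicate given in the sample descriptions. Of 47643 genes in the table, 14576 averaged 0.5 TPM or more across the 62 libraries and were tested. TPM is transcript abundance per length, scaled to the same sum in every library.

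All mice were female and 2 months old. The series record gives them as NCI Ath/nude, an athymic strain, whereas the sample labels give C57BL6/J, and the treatment tag reads cachectic melanoma cells on every sample, mock tissue included. Markers of T cells were near 0 in both groups: the 8 genes summed to 1.27 to 6.20 TPM in CAC and 1.59 to 5.99 TPM in mock libraries. Adiponectin (Adipoq), the defining adipocyte product, was at 2649 to 6700 TPM in the 10 libraries. The 7 melanocyte and melanoma markers summed to 8.96 to 15.5 TPM in CAC libraries (median 14.2 TPM). In mock libraries they summed to 8.47 to 17.4 TPM (median 10.2 TPM), with the highest sum in replicate 2. Of the 7 markers, Mlana, Tyr and Tyrp1 were below the level tested, and whether such mouse markers would register the injected cells is unknown. The study also used melanoma cells that do not cause cachexia (NCAC), and the times 2, 6 and 8 weeks. The melanoma lines and the content of the mock injection are not named in the labels.

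Cachexia is a wasting state in which fat stores are broken down. White adipocytes release stored triglyceride by lipolysis, secrete hormones such as leptin in proportion to their fat, and share the tissue with fibroblast-like progenitors, vessels and macrophages. Cytokines of the interleukin-6 family act through gp130 and the transcription factor STAT3 and induce acute-phase plasma proteins, mostly in liver. CC chemokines are small secreted proteins that draw leukocytes into tissue.

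Libraries differed within each group. Mitochondrially encoded genes took 27.7% to 39.0% of TPM in CAC and 26.0% to 38.7% in mock libraries. Summed urothelial markers were above 100 TPM in 2 CAC libraries (replicates 2 and 5) and 2 mock libraries (replicates 2 and 4). In mock replicate 2, ovary and uterus markers summed to 309.8 TPM, against 3.49 to 16.9 TPM in the other libraries. Its mammary and glandular epithelium markers, which share Ltf with that list, summed to 537.4 TPM, against 2.73 to 214.7 TPM elsewhere. CAC replicate 2 stood apart: its 10 skeletal muscle markers summed to 3672 TPM, against 2.89 to 69.1 TPM across the other 9 libraries, and it lay alone on the second principal component.

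The promoters of 4 genes described below are given first: Ccl8, the gene that passed the test, Itih4, with the largest log2 difference among the genes named, and Serpina3n and Socs3, an acute-phase product and a feedback inhibitor of STAT3 signalling. Each is the 250 bases before the transcription start in RefSeq (GRCm38.p6), written 5′ to 3′ on the gene's strand. Capitals mark the motif matches found on either strand, and the searched letters are listed after the sequences.
Ccl8: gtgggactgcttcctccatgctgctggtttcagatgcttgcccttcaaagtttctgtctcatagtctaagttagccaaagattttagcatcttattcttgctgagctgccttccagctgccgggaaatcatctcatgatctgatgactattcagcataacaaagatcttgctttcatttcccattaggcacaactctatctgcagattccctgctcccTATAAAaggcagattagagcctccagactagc
Itih4: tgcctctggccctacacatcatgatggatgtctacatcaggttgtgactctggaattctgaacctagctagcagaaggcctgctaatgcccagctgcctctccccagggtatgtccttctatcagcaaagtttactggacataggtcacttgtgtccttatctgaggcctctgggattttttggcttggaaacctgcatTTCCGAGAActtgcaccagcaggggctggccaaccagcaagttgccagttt
Serpina3n: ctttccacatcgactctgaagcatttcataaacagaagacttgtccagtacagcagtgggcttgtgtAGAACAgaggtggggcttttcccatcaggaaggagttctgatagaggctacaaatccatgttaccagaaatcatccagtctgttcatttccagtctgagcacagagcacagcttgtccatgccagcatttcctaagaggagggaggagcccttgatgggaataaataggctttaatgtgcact
Socs3: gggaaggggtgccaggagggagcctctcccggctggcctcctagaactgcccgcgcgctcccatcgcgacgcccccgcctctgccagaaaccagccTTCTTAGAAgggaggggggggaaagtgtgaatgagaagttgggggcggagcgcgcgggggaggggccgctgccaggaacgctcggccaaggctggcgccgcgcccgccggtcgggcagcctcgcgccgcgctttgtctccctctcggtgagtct
The windows are chr11:82114935-82115184 (plus strand) for Ccl8, chr14:30886226-30886475 (plus) for Itih4, chr12:104406458-104406707 (plus) for Serpina3n and chr11:117969367-117969616 (minus) for Socs3. The Ccl8 window holds a TATA box (TATAAA), a match present in 12.4% of 32851 such windows, and it starts 32 bases before the transcription start. The windows of Itih4 and Socs3 each hold 1 match to the STAT motif TTCNNNGAA, present in 7.02% of windows, at 51 and 154 bases before the start. The Serpina3n window holds 1 half-site of the glucocorticoid response element (AGAACA, in 16.1% of windows), 183 bases before the start. The C/EBP motif TTGCNNAA (9.56% of windows) has no match in these windows. A match describes letters and is not evidence of binding. The GENCODE models used for gene coordinates start elsewhere for a pair of these genes. GENCODE places Socs3 at chr11:117966079-117970047 (minus strand), so the Socs3 window lies inside that gene model, downstream of its start. Serpina3n starts at position 104406729 there, slightly downstream of its RefSeq start.

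Ccl8, a CC chemokine gene, rose in CAC fat and was the only gene called (1 of 14576, 0.00686%). It lies at chr11:82115185-82116799 on the plus strand (GRCm38). In CAC replicates 1 to 5 it was at 76.5, 75.4, 64.5, 88.4 and 61.6 TPM. In mock replicates 1 to 5 it was at 12.6, 12.99, 6.04, 9.72 and 3.47 TPM. Every CAC library was above every mock library, and the lowest CAC value was 61.6 TPM against a highest mock value of 12.99 TPM. The means were 73.3 ± 10.7 TPM (SD, n = 5) and 8.97 ± 4.15 TPM (SD, n = 5). The log2 change was 3.01 (SE 0.29), with a limma adjusted p of 0.00548. An exact two-sided permutation test of the 10 libraries gave p = 0.00794, the smallest that 252 splits allow. It was 0.0397 after adjustment over the 5 chemokine genes tested so, not over all genes. Groups without overlap always give this smallest p, and Ccl8 was chosen for the test with earlier results of these data known. The permutation p is therefore no independent evidence.

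The call depended on the fit in 3 of 24 alternatives. With the spread taken from all 62 libraries the limma adjusted p of Ccl8 was 0.73, with a stromal covariate 0.131 and without the 4 urothelial libraries 0.342, at log2 changes of 3.01, 2.89 and 3.35. The stromal covariate is the mean log2 level of 10 fibroblast and progenitor markers. A further fit, added after the data were seen, used the 9 of these that are not matrix genes. Ccl8 was not called there either (limma adjusted p 0.0987, log2 change 2.88). Leaving out any 1 of the 10 libraries left Ccl8 called, with log2 changes from 2.75 to 3.16. Because these are bulk samples, more cells that make a transcript and more transcript per cell cannot be told apart.

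The genes beside Ccl8 on chromosome 11 encode related chemokines, and none was called. Ccl12, its nearest neighbour of these, was at 2.27, 3.20, 9.37, 15.7 and 5.61 TPM in CAC replicates 1 to 5 and at 1.31, 0.86, 1.69, 3.37 and 1.14 TPM in mock replicates. The CAC values overlap the mock range in 2 libraries, and the log2 change was 1.44 (SE 0.42, exact permutation p = 0.0238, adjusted over 5 genes 0.0595). Ccl2, a monocyte attractant, was at 1.64 ± 1.13 in CAC against 2.04 ± 1.23 TPM in mock fat (SD, n = 5; exact permutation p = 0.524). Ccl7, another monocyte attractant, was at 3.42 ± 2.30 and 2.06 ± 1.67 TPM (SD, n = 5; exact permutation p = 0.278). Ccl11, the eosinophil attractant eotaxin, was the most abundant of the 5 genes in mock fat at 90.5 ± 20.7 TPM and stood at 80.7 ± 28.3 TPM in CAC fat (SD, n = 5; exact permutation p = 0.437). Of these 5 genes, Ccl8 alone had groups that did not overlap.

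**Figure D1:**
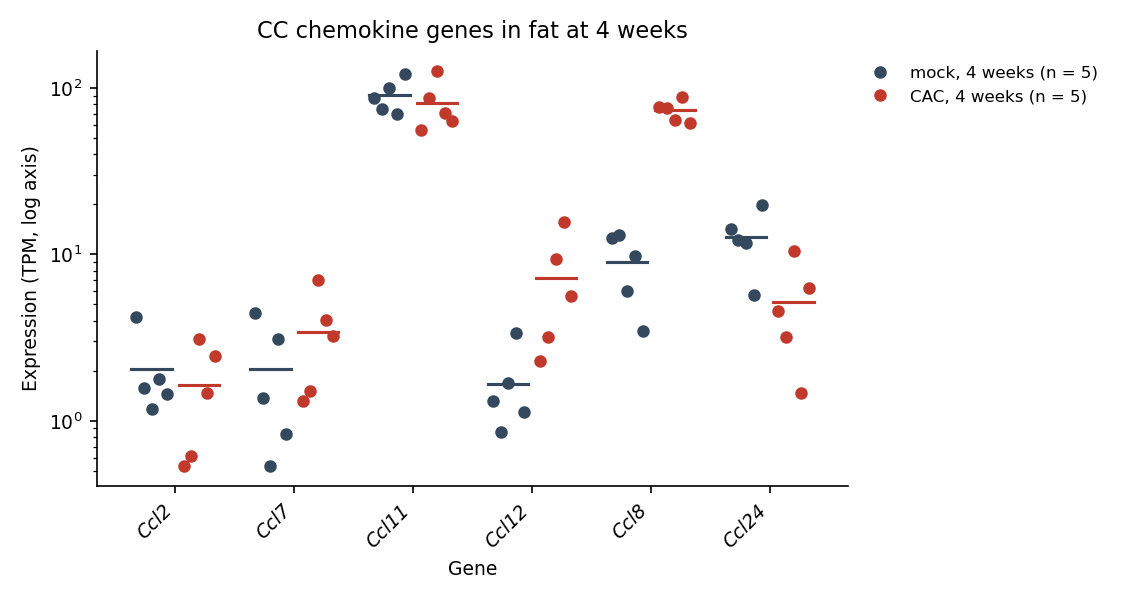
TPM of 6 CC chemokine genes on a log axis in the 5 mock (dark) and 5 CAC (red) libraries at 4 weeks. Points are libraries and bars are group means. Only at Ccl8 do the groups of these 6 genes not overlap, with all CAC values at or above 61.6 TPM and all mock values at or below 12.99 TPM.

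Of 20 CC chemokine genes 15 were tested and 1, Ccl8, was called. Of the 15, 6 had a log2 change above 0 against 9 below, with a median of -0.10 (all genes tested: median -0.08, 32.7% above 0). Ccl24, another eosinophil attractant, was at 5.19 ± 3.43 in CAC against 12.7 ± 5.10 TPM in mock fat (log2 -1.24, SE 0.40, unadjusted limma p 0.0103). Among 8 CXC chemokine genes tested, 2 had an unadjusted p under 0.05 and both were lower. Cxcl14 was at 6.26 ± 2.31 against 22.3 ± 12.9 TPM, and Cxcl9, an interferon-gamma target that attracts T cells, at 12.7 ± 8.32 against 28.3 ± 10.6 TPM (SD, n = 5). Neither gene separated the groups completely.

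Of 20 chemokine receptor genes 11 were tested and 0 called. Ccr8, the receptor through which mouse Ccl8 signals, was not among those tested and reached at most 0.272 TPM in the 10 libraries. Ackr1, the scavenging receptor of venule endothelium, was at 20.8 ± 7.65 in CAC and 12.5 ± 2.24 TPM in mock fat, and Cxcr4, the receptor of Cxcl12, at 5.66 ± 1.56 against 10.1 ± 3.32 TPM (SD, n = 5). Of 14 macrophage markers 0 were called and 11 had log2 changes below 0, near the share over all genes tested (67.3% below 0). That count was 5 with the stromal covariate and 9 after median-ratio rescaling, where 29.7% and 49.8% of all genes were below 0. Marker sums were 516.9 to 1308 TPM in CAC and 557.6 to 1413 TPM in mock libraries. The macrophage marker Adgre1 (F4/80) was at 11.8 ± 3.78 against 16.7 ± 6.97 TPM (SD, n = 5).

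Acute-phase and interleukin-6 family genes included the largest log2 difference of any gene tested, at Itih4, but 0 of 24 tested members (of 27 listed) were called. At an unadjusted limma p under 0.05, 9 members were higher and 1 lower, against 0.652% of all genes higher and 2.13% lower. A log2 change above 0 was seen in 18 of 24, with a median of 0.67. That median was 0.34 without CAC replicate 2 and 0.44 with the stromal covariate. The part of the muscle transcripts of that library in these values was not tested. Several listed genes were known from earlier results of these samples, so the count is no independent evidence of direction.

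Among the signalling members, Socs3, the feedback inhibitor that STAT3 induces, was at 8.55, 30.01, 26.1, 17.4 and 10.7 TPM in CAC replicates 1 to 5. Mock replicates 1 to 5 were at 9.07, 8.69, 4.79, 7.11 and 5.20 TPM. CAC replicate 1 lay within the mock range and the other 4 lay above it (log2 1.19, SE 0.33, unadjusted limma p 0.00378). Stat3 itself was at 59.2 ± 28.5 in CAC against 29.8 ± 7.96 TPM in mock fat, and 4 of the 5 CAC values exceeded all mock values. Osmr, the oncostatin M receptor, was at 18.2 ± 9.57 against 9.15 ± 3.28 TPM, and 3 of the 5 CAC values exceeded all mock values. Il6st (gp130), the shared signalling chain, was at 94.1 ± 30.1 against 80.7 ± 19.5 TPM, and Il6ra, the interleukin-6 receptor, at 14.4 ± 8.19 against 14.6 ± 5.43 TPM (SD, n = 5). The ligand Il6 was at 0.288 TPM or less in each of the 10 libraries.

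Itih4, a heavy chain of the inter-alpha-trypsin inhibitor family and an acute-phase plasma protein, lies at chr14:30886476-30902353. Its CAC replicates 1 to 5 were at 57.6, 329, 11.8, 203 and 27.2 TPM. Its mock replicates were at 3.21, 3.86, 4.61, 3.61 and 1.29 TPM. The groups did not overlap, but the CAC libraries spread from 11.8 to 329 TPM. The log2 change was 4.03 (SE 0.79) with a limma adjusted p of 1.00, and 0.00031 when the spread was taken from all 62 libraries. The related Itih3 was at 2.29 ± 1.59 against 0.681 ± 0.270 TPM (SD, n = 5) with no overlap.

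Haptoglobin (Hp), which binds free haemoglobin, was at 636, 12470, 5117, 3697 and 1261 TPM in CAC replicates 1 to 5. In mock replicates it was at 432, 402, 383, 455 and 717 TPM. CAC replicate 1 lay within the mock range, and replicate 2 held the highest value (log2 2.62, SE 0.68, limma adjusted p 1.00). Serpina3n, a secreted protease inhibitor, was at 389, 2063, 674, 1018 and 268 TPM in CAC against 233, 152, 192, 180 and 311 TPM in mock replicates. Replicates 2 and 4 were the highest CAC libraries, and replicate 5 was inside the mock range. Serpina3m was at 27.7 ± 24.9 against 4.68 ± 2.08 TPM without overlap, but it shares its annotated start with Serpina3k, a member of the same family, so the values of these family members are individually uncertain. Lrg1, a secreted leucine-rich glycoprotein, was at 62.9, 602, 798, 350 and 164 TPM in CAC replicates, and mock replicates gave 175, 36.6, 28.5, 66.7 and 136 TPM, so 3 CAC libraries exceeded all mock libraries.

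Of the 14 members above an unadjusted limma p of 0.05, 9 had a log2 change above 0 and 5 below. Saa1, a serum amyloid A gene, was at 1.08 ± 1.52 in CAC against 0.038 ± 0.0851 TPM in mock fat (log2 0.75), and the complement component C3 at 2111 ± 700.1 against 1599 ± 390 TPM (SD, n = 5). Saa3 was at 24.4 ± 18.8 in CAC against 30.7 ± 28.0 TPM in mock fat, and Orm1, an orosomucoid, at 515 ± 245 against 676 ± 164 TPM (SD, n = 5). Lcn2, the iron-siderophore binding lipocalin, was at 6.14, 60.9, 7.075, 21.8 and 3.16 TPM in CAC replicates 1 to 5. Mock replicates 1 to 5 were at 0.706, 166, 1.705, 3.68 and 0.675 TPM, so mock replicate 2 alone exceeded the CAC range (log2 1.16, SE 1.25). Lif, an interleukin-6 family ligand, was at 0.369 ± 0.383 against 1.33 ± 1.03 TPM (SD, n = 5). Alb, the defining liver product, was lower in CAC fat at 5.74 ± 3.57 against 14.8 ± 5.24 TPM (SD, n = 5).

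Further secreted proteins with higher CAC means were named by the rule or from the lists. Wfdc21, a small secreted whey acidic protein family member, was at 325, 334, 370, 758 and 266 TPM in CAC replicates 1 to 5. Mock replicates were at 81.3, 81.0, 119, 108 and 47.6 TPM. All CAC values were above all mock values (log2 2.18, SE 0.30), and the limma adjusted p was 0.112. Apod, an apolipoprotein of the lipocalin family, was at 18.0, 179, 27.7, 29.4 and 19.1 TPM against 3.37, 14.9, 7.21, 12.3 and 6.97 TPM, also without overlap. The complement component C4b was at 247, 880, 787, 609 and 394 TPM in CAC replicates, and mock replicates gave 441, 94.1, 38.1, 116 and 175 TPM. Its groups overlap through mock replicate 1, and its near-identical copy C4a was at 16.4 ± 7.71 against 5.39 ± 3.83 TPM (SD, n = 5). Of 18 complement genes tested these were the 2 with an unadjusted limma p under 0.05, and 9 of the 18 had a log2 change above 0 against 9 below (median 0.01).

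**Figure D2:**
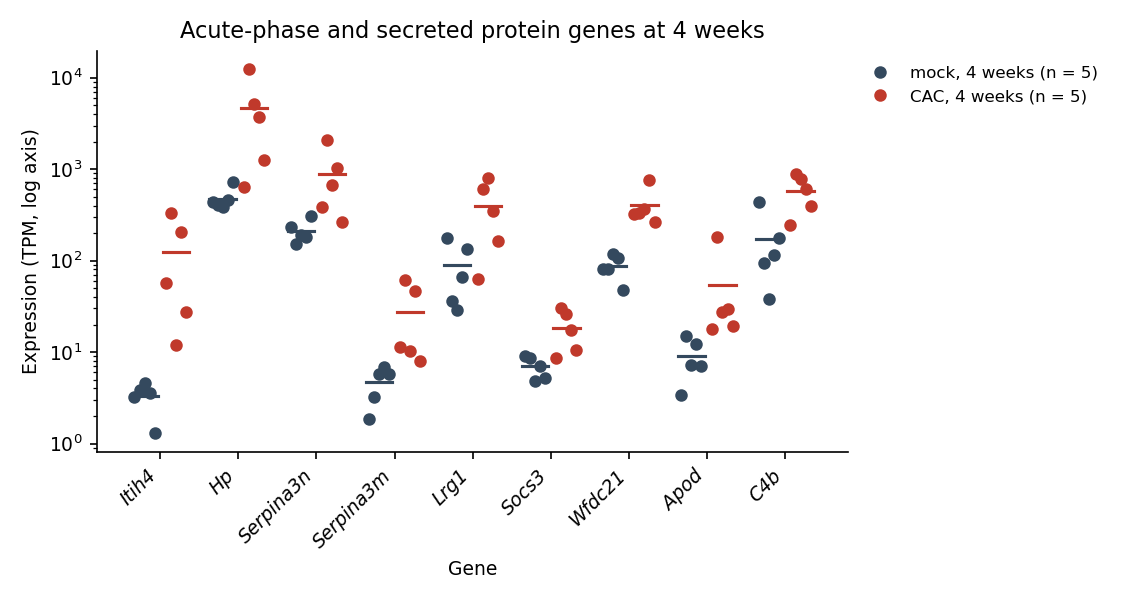
TPM on a log axis of 9 acute-phase and other secreted protein genes in the 5 mock (dark) and 5 CAC (red) libraries, with points for libraries and bars for means. Itih4, Serpina3m, Wfdc21 and Apod do not overlap between the groups, while at Hp, Serpina3n, Lrg1, Socs3 and C4b at least 1 CAC library lies within the mock range.

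The remaining higher genes named by the rule were receptors and a signalling regulator, and 0 of them was called. Rgs16, which limits G protein signalling, was at 16.8 ± 4.69 in CAC against 6.77 ± 3.00 TPM in mock fat (SD, n = 5; log2 1.27, SE 0.32) without overlap. Csf2rb, the shared chain of the interleukin-3, interleukin-5 and GM-CSF receptors, was at 48.6 ± 13.1 against 26.3 ± 11.1 TPM, and its near-identical copy Csf2rb2 at 19.6 ± 9.84 against 8.06 ± 4.199 TPM (SD, n = 5). Both overlap the mock range.

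Across all genes tested, 13 had every CAC library above every mock library (0.0892%) and 34 had every CAC library below (0.233%). At an unadjusted limma p under 0.05, 405 genes remained (2.78%), 95 higher and 310 lower, so 23.5% of them were higher. That share was 42.9% after median-ratio rescaling, which equalizes the median ratio of each library to a shared reference, under which 49 genes lay wholly above and 33 wholly below. The share of genes with a log2 change below 0 was 67.3% as deposited and 49.8% after the rescaling. The balance of higher and lower genes depended on the scaling, on a covariate and on single libraries. With the stromal covariate 475 genes were higher and 86 lower at that p (84.7% higher), and 29.7% of all genes were below 0. Library weights, which give less weight to libraries far from their group, gave 92 higher and 834 lower. The counts were 133 higher and 1133 lower without CAC replicate 3, and 70 higher and 722 lower without mock replicate 3. Without mock replicate 1 there were 108 higher and 139 lower, and without CAC replicate 4 there were 108 and 134.

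**Figure D3:**
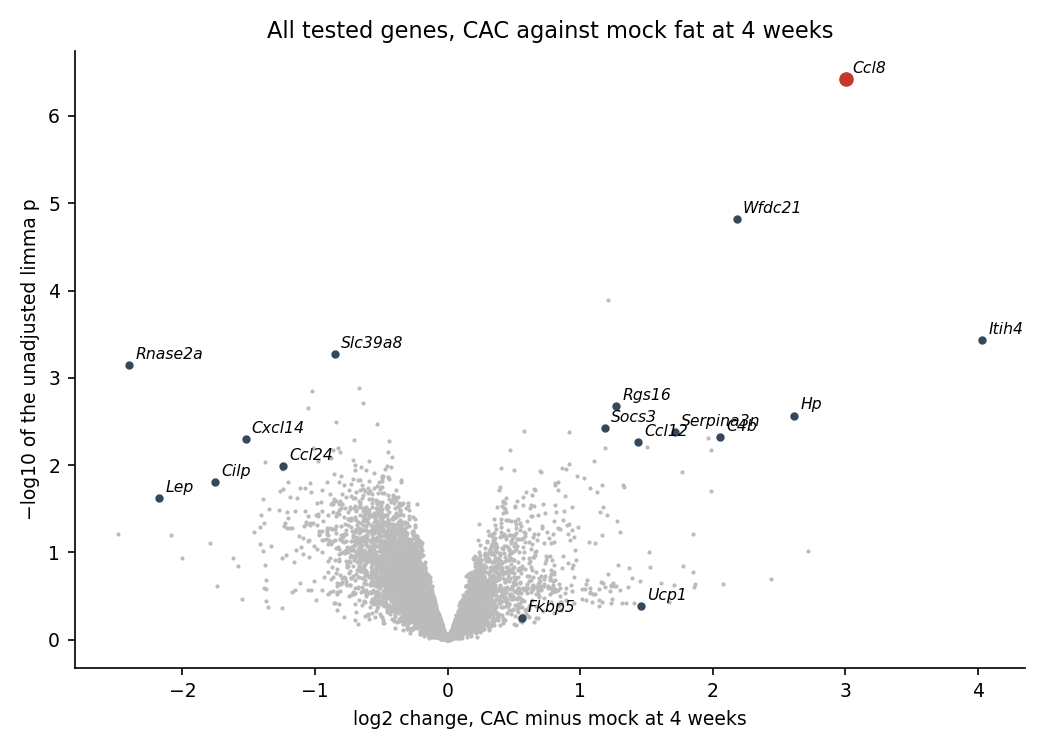
Log2 change (CAC minus mock at 4 weeks) against -log10 of the unadjusted limma p for the 14576 genes tested, with the called gene in red and some named genes labelled. Ccl8 stands highest on the p axis, and Itih4 lies farthest right at 4.03.

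Of all genes tested with a log2 change below 0, the lowest p belonged to Slc39a8, which encodes the zinc transporter ZIP8. It was at 6.51, 6.90, 7.21, 4.19 and 7.32 TPM in CAC replicates, and mock replicates gave 11.5, 15.9, 11.6, 13.2 and 9.59 TPM. The groups did not overlap (log2 -0.85, SE 0.18), and the limma adjusted p was 1.00. Rnase2a, of the eosinophil-associated ribonuclease family with near-identical members, was at 3.804, 1.02, 10.3, 2.19 and 2.67 TPM against 25.4, 13.3, 19.6, 10.1 and 60.7 TPM. CAC replicate 3 alone reached the mock range (log2 -2.40, SE 0.52, unadjusted limma p 0.000719).

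Of the other 10 lower genes named by the rule, 3 separated the groups: Snrnp35, a protein of the minor spliceosome (13.7 ± 3.13 against 22.0 ± 2.21 TPM), Galm, galactose mutarotase (34.5 ± 5.01 against 47.1 ± 4.62 TPM), and the class Ib gene H2-T24 (8.69 ± 0.97 against 12.2 ± 1.59 TPM; SD, n = 5 in each group). The rule chose these genes by small p between the same groups, which favours separation. Over all genes tested 0.233% had every CAC library below every mock library. The transcobalamin receptor Cd320, the phospholipase Pla1a, the class Ib gene H2-Q1, the serine protease Htra1, ficolin A (Fcna), Cxcl14 and the macrophage growth factor Il34 had log2 changes from -1.52 (Cxcl14) to -0.64 (Cd320) with overlap. Il34 was at 13.5 ± 5.38 against 25.1 ± 8.10 TPM and Fcna at 44.9 ± 12.7 against 80.9 ± 31.4 TPM (SD, n = 5).

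No adipocyte gene was called, and leptin had the widest difference among those named. Lep, encoding leptin, was at 21.9, 13.1, 284, 43.6 and 61.6 TPM in CAC replicates, and mock replicates gave 345, 70.5, 198, 128 and 760 TPM. CAC replicate 3 lay inside the mock range and the other 4 below it (log2 -2.17, SE 0.83, unadjusted limma p 0.0241). Adipoq was at 3689 ± 652 against 5020 ± 1095 TPM, and Insr, the insulin receptor, at 58.4 ± 11.5 against 43.5 ± 7.77 TPM (SD, n = 5). Of 20 adipocyte genes tested, 0 were called, 16 had a log2 change below 0 and the median was -0.29, where 67.3% of all genes were below 0. After median-ratio rescaling 6 of the 20 were above 0 and the median was -0.20.

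The main lipases of triglyceride breakdown differed by less than their standard errors. Pnpla2 (adipose triglyceride lipase) was at 1972 ± 372 and 1936 ± 309 TPM (log2 0.02, SE 0.18), and Lipe (hormone-sensitive lipase) at 699 ± 132 and 734 ± 167 TPM (log2 -0.06, SE 0.19; SD, n = 5). Azgp1, a secreted zinc-binding glycoprotein, was at 2.27 ± 1.82 against 0.669 ± 0.833 TPM. Of 15 lipolysis genes 1 was higher at an unadjusted limma p under 0.05 and the median log2 change was -0.06.

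Fatty acid synthesis genes spread widely within CAC fat. Fasn, fatty acid synthase, was at 6198, 757, 1187, 3312 and 3522 TPM in CAC against 2142, 3534, 4323, 4093 and 2520 TPM in mock replicates. The CAC libraries held both the highest and the lowest value. Of 14 genes, 13 had a log2 change below 0 (median -0.40), against 67.3% of all genes. Without CAC replicate 2, 7 of 14 were above 0 and the median was -0.03, with 78.4% of all genes below 0. After median-ratio rescaling 4 were above 0, with 49.8% of all genes below 0. Pnpla3 was at 122 ± 77.4 against 244 ± 50.3 TPM, and Dgat2, which makes triglyceride, had a log2 change of -0.54 (SE 0.23).

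Thermogenic genes mostly had positive log2 changes, fewer so without CAC replicate 2. Of 14 tested, 13 had a log2 change above 0 (median 0.64), and 10 (median 0.39) without that library. The share of all genes below 0 was 67.3%, and 78.4% without that library. Ucp1, the uncoupling protein of brown and beige adipocytes, was at 25.5, 772, 434, 392.4 and 391.4 TPM in CAC replicates, and mock replicates gave 0.0776, 79.5, 219, 343 and 1340 TPM. The mock range enclosed all 5 CAC values. Kcnk3, a potassium channel of thermogenic adipocytes, was the 1 member with an unadjusted limma p under 0.05, at 44.2, 174, 42.2, 84.9 and 49.5 TPM against 23.1, 28.1, 45.5, 44.3 and 48.1 TPM.

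Of 17 glucocorticoid and fasting genes, 10 had a log2 change above 0, with a median of 0.05, against 32.7% of all genes and a median of -0.08. None of the 17 had an unadjusted limma p under 0.05. Without CAC replicate 2, 4 were above 0 (median -0.10), and 78.4% of all genes were below 0 in that fit. Fkbp5, a classical glucocorticoid target, was at 15.7, 201, 25.6, 61.8 and 5.07 TPM in CAC replicates, and mock replicates gave 5.95, 6.89, 27.3, 44.8 and 68.01 TPM. CAC replicate 2 held the highest value and the other 4 lay in or below the mock range. Metallothionein Mt1 was at 132, 3395, 338, 914 and 128 TPM against 144, 131, 154, 238 and 294 TPM, with replicates 2 and 4 highest. Its close relative Mt2 was at 607 ± 1008 against 54.8 ± 32.3 TPM (SD, n = 5).

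All 24 extracellular matrix genes had log2 changes below 0 (median -0.87), and 0 were called. Of these, 7 had an unadjusted limma p under 0.05, against 2.13% of all genes in that direction. Col1a1, a chain of type I collagen, was at 27.2, 15.4, 128, 24.4 and 88.1 TPM in CAC replicates, and mock replicates gave 136, 146, 40.4, 145 and 146 TPM. CAC replicates 3 and 5 and mock replicate 3 lay between the bulk of the groups (log2 -1.41, SE 0.59). Cilp, a matrix protein, was at 2.30 ± 2.20 against 12.2 ± 12.7 TPM, and Fbn1, which forms microfibrils, at 11.5 ± 7.61 against 27.5 ± 13.8 TPM (SD, n = 5).

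Of 10 fibroblast and progenitor markers 0 were called, 3 had an unadjusted limma p under 0.05 and 9 had log2 changes below 0 (median -0.73), and their sums were 499.7 to 2351 TPM in CAC and 913.4 to 1858 TPM in mock libraries. Fbn1 is in both lists, so the stromal covariate holds 1 of the matrix genes. With it, 11 of 24 matrix genes were above 0 and the median was -0.03, where only 29.7% of all genes were below 0. With a covariate from the other 9 markers, tried after the data were seen, 9 of the other 23 matrix genes were above 0. Their median was -0.07, against -0.81 with no covariate. The share of all genes below 0 under that covariate was not computed. Without mock replicate 3, 14 matrix genes had an unadjusted limma p under 0.05, and without CAC replicate 3, 16. Over all genes the lower counts at that p also rose in these fits, to 722 and 1133, from 310 with all 10 libraries. All 24 matrix genes kept a log2 change below 0 after median-ratio rescaling.

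No marker of an immune cell type was called. Of 18 interferon response genes, 16 had log2 changes below 0 (median -0.36) and 5 were lower at an unadjusted limma p under 0.05, against 67.3% and 2.13% of all genes. After median-ratio rescaling 13 were below 0 and 1 was lower at that p. Of 10 eosinophil markers 5 were tested, all with log2 changes below 0. Sums of the 10 were 10.5 to 33.9 TPM in CAC and 24.1 to 114 TPM in mock libraries. Rnase2a, 1 of the 5, made up 60.7 of the 114 TPM in mock replicate 5, and Siglecf, Ccr3 and Il5ra were below the level tested. Of 8 neutrophil markers 4 were tested, all with log2 changes above 0, and sums were 10.8 to 46.3 TPM in CAC and 5.86 to 33.1 TPM in mock libraries. The eosinophil genes Epx and Ear6 were listed at 0 in all 10 libraries. Trem2, a receptor of lipid-associated macrophages, was at 2.15 ± 0.518 against 4.47 ± 2.46 TPM, and Ighm, the immunoglobulin mu chain, at 28.1 ± 12.4 against 81.8 ± 62.7 TPM (SD, n = 5). All 16 proliferation genes had log2 changes below 0 (median -0.35; 67.3% of all genes below 0), with Rrm2, a ribonucleotide reductase subunit, at 1.07 ± 0.329 against 2.37 ± 1.11 TPM. After median-ratio rescaling 1 of the 16 was above 0.

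The difference at 4 weeks was then set beside the other weeks, each of which has its own mock libraries. Ccl8 in CAC fat was at 20.1 ± 13.6 (n = 5), 73.3 ± 10.7 (n = 5), 235 ± 93.6 (n = 5) and 290 ± 249 TPM (n = 7) at 2, 4, 6 and 8 weeks. In mock fat it was at 20.8 ± 33.1, 8.97 ± 4.15, 31.0 ± 33.6 and 64.8 ± 83.5 TPM (SD, n = 5 each). The mock libraries of 4 weeks had the lowest mean and the smallest SD of the 4 weeks. The log2 difference between CAC and mock was 0.65, 3.01, 3.65 and 2.48 in that order. The difference at 4 weeks exceeded that at 2 weeks by 2.36 (SE 0.83), with a limma adjusted p of 0.985 over all genes. It was -0.64 (SE 0.92) relative to 6 weeks and 0.53 (SE 0.86) relative to 8 weeks.

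No gene was called for a difference between 4 weeks and 2, 6 or 8 weeks in limma (0% called in each). At an unadjusted p under 0.05 there were 317, 299 and 472 genes, or 2.17%, 2.05% and 3.24% of those tested. Itih4 in CAC fat was at 27.5 ± 31.8, 126 ± 137, 570 ± 215 and 895 ± 427 TPM at 2, 4, 6 and 8 weeks (SD, n = 5, 5, 5 and 7), and its mock means were between 3.32 and 7.55 TPM. Hp in CAC fat had medians of 710, 3697, 10200 and 7945 TPM, with mock medians between 432 and 487 TPM. The 4-week values of both genes lay between those of 2 and 6 weeks.

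NCAC fat at 4 weeks gives the same week with the other melanoma cells. Ccl8 was at 24.5 ± 18.2 TPM there (SD, n = 5; range 3.29 to 44.1 TPM), so all 5 CAC libraries were above it. The log2 difference of CAC from NCAC fat was 1.96 (SE 0.55), with a limma adjusted p of 0.981. NCAC fat differed from mock fat by a log2 of 1.05 at Ccl8, 1.03 at Ccl12, 0.75 at Ccl7, 0.30 at Ccl2 and -0.14 at Ccl11. For CAC against mock fat these were 3.01, 1.44, 0.55, -0.24 and -0.20. Itih4 was at 4.27 ± 1.44 TPM and Hp at 862 ± 730 TPM in NCAC fat (SD, n = 5). Wfdc21 was at 152 ± 142 TPM, with a highest value of 403 TPM that overlaps the CAC range. Between CAC and NCAC fat 0 genes were called (0%), and 648 had an unadjusted limma p under 0.05 (4.45%).

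**Figure D4:**
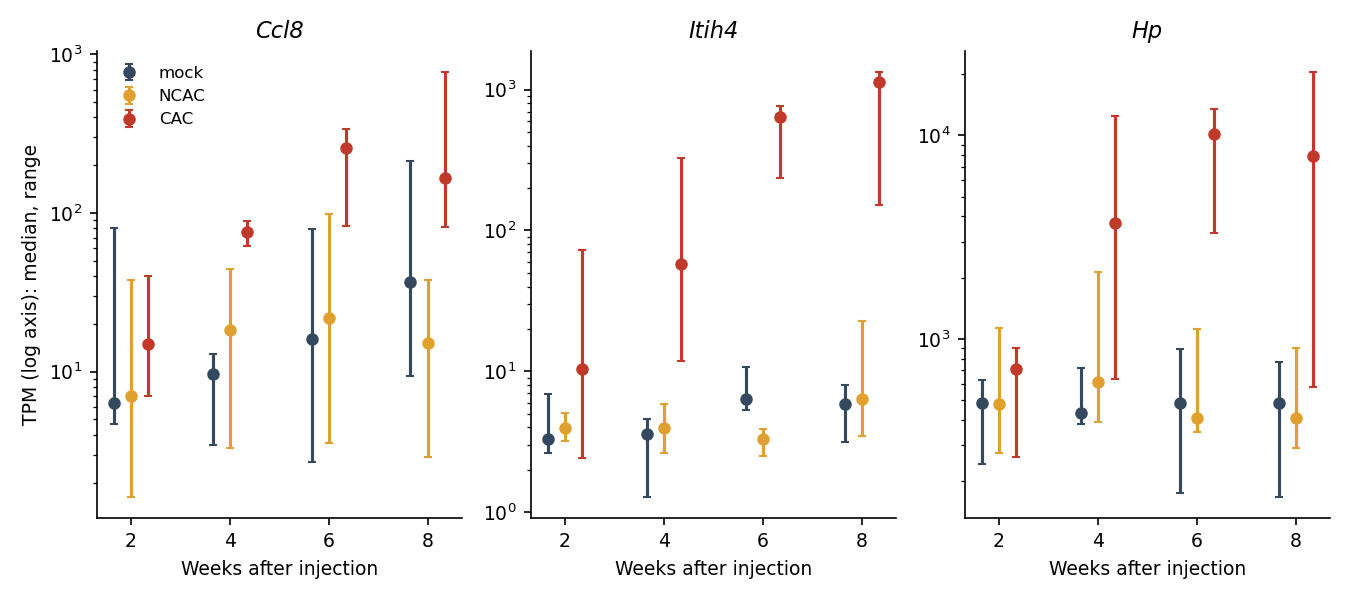
Median TPM (points) with the full range (bars) on log axes for Ccl8, Itih4 and Hp in mock, NCAC and CAC fat at 2, 4, 6 and 8 weeks (n = 5 libraries per group, 7 for CAC at 8 weeks). At 4 weeks the CAC bar of Ccl8 is short (61.6 to 88.4 TPM), whereas those of Itih4 and Hp are long.

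The genes that led the differences at 6 and 8 weeks were followed back to 4 weeks. This list of 28 genes was chosen from the later weeks of the same study. Smaller differences at 2 and 4 weeks than at 6 and 8 weeks can therefore follow from the choice alone. All 14 of the later-higher genes had a log2 difference above 0 at 4 weeks, against 32.7% of all genes. At 2 weeks 11 did, but the share of all genes at that week was not computed. Their median difference was 0.49, 1.81, 3.44 and 3.91 at 2, 4, 6 and 8 weeks. At 4 weeks 0 of the 14 were called, 7 had an unadjusted limma p under 0.05, and 4 (Itih4, Apod, Serpina3m and Wfdc21) did not overlap between groups. Over all genes 0.652% were higher at that p and 0.0892% had every CAC library above every mock library. Each of the 14 had a smaller difference at 4 weeks than at 6 and at 8 weeks. Of all 28 listed genes, higher and lower together, 14 had a log2 change above 0 at 4 weeks, and 13 without CAC replicate 2.

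The 14 later-lower genes all had a log2 difference below 0 at 4 weeks, against 67.3% of all genes. At 2 weeks 10 did, again without a share of all genes to set beside it. The medians of the 14 were -0.42, -1.35, -2.16 and -3.11. Of these, 4 had an unadjusted limma p under 0.05 at 4 weeks (Rnase2a, Cilp, Cxcl9 and Col1a1), against 2.13% of all genes, and 0 separated the groups. Nnat, an imprinted gene of expanding adipocytes, shows the spread: it was at 2.76, 27.2, 1469, 28.4 and 80.1 TPM in CAC replicates, and mock replicates gave 1154, 56.4, 57.8, 13.8 and 707 TPM, so each group spanned low and high libraries.

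**Figure D5:**
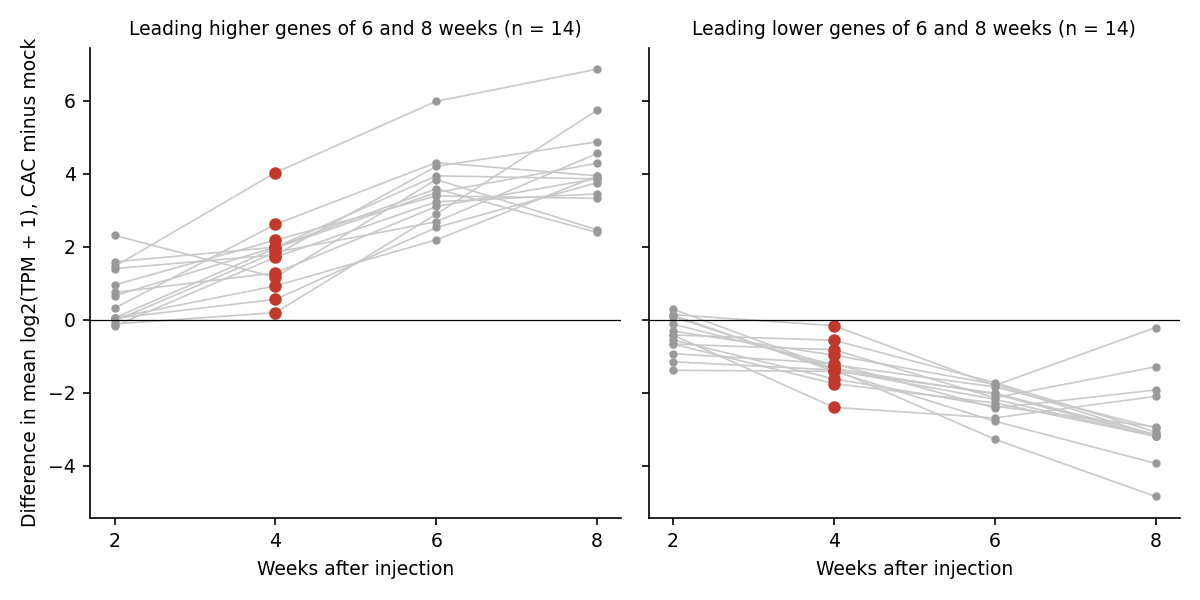
Difference in mean log2(TPM + 1) between CAC and mock fat at each week for the 14 leading higher genes (left) and 14 leading lower genes (right) of 6 and 8 weeks. Each line is a gene and red points mark 4 weeks, where all 14 lie above 0 on the left and all 14 below 0 on the right.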

How the data were processed

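RNA from white adipose tissue was sequenced as stranded TruSeq mRNA libraries on an Illumina NovaSeq, per the labels' protocols, which call the replicates biological. Reads were placed on mm10, per the submitters' processing notes. Which aligner and counting tool were used is not given in the sources used here, nor is the read depth, so counting error is unknown. The authors deposited 1 table of TPM, summing to 1000000 in each library.

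Values were transformed to log2(TPM + 1), so changes of low genes are understated. Genes averaging 0.5 TPM or more across the 62 libraries were fitted with limma 3.58.1 in R 4.3.3 (mean-variance trend, robust prior) on the groups compared, two-sided, with Benjamini-Hochberg adjustment over all genes. Genes were called at an adjusted p under 0.05. Counts at an unadjusted p under 0.05 describe lists and are not calls. Differences between weeks are contrasts of CAC minus mock at each week. Errors are limma standard errors (SE) or standard deviations (SD).

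The members, gene lists and tests were chosen with earlier results of these data known. Named genes are the called gene, the 12 with the smallest p in each direction averaging 10 TPM or more in the higher group, the smallest p under 0.05 in each direction per list, and a set list. Other genes given with values were picked as list members after their values were seen. Near-identical genes may be split between copies, because the counting tool is unknown. Coordinates come from GENCODE M21 (GRCm38). Alternatives covered pseudocounts, filters, scaling, covariates, library weights, a replicate block and leaving out libraries. Tested on simulated data for this comparison (14576 genes), limma recovered 58 of 100 genes changed by a log2 of 1 and 92 of 100 changed by 2. There were 0 of the wrong sign and 6 unchanged genes among 156 called. All changes were planted at once, in independent normal noise and among genes with a mean log2(TPM + 1) of at least 2. With 156 genes called the adjusted p is easier to reach than with the 1 called here. The recovered shares therefore do not carry over to the real comparison.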

Additional observations from a re-analysis of the deposited data

Results flagged for a closer look

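In each group of 5 libraries the highest or lowest value was checked for its gap to the nearest other library as a share of the group's whole range. Of 162 groups checked 13 passed the critical value for 5 libraries, and chance flags about 1 in 20 groups. Col1a1 in mock replicate 3 was lowest at 40.4 TPM with a gap share of 0.944, and Cxcr4 in CAC replicate 4 was lowest at 2.90 TPM (0.871). Scd1, stearoyl-CoA desaturase, was highest in mock replicate 5 at 16650 TPM (0.845). CAC replicate 2, the library with skeletal muscle transcripts, was highest for Csf2rb at 71.8 TPM (0.817) and for Apod at 179 TPM (0.792). CAC replicate 1 was lowest for Ucp1 at 25.5 TPM (0.799) and highest for Saa3 at 57.7 TPM (0.73). Ackr1 was lowest in mock replicate 3 at 8.57 TPM (0.792), and Slc39a8 in CAC replicate 4 at 4.19 TPM (0.784). Lcn2 was highest in mock replicate 2 at 166 TPM (0.777), Hp in mock replicate 5 at 717 TPM (0.726) and Ccl2 in mock replicate 1 at 4.21 TPM (0.714). Rgs16 was lowest in mock replicate 5 at 2.12 TPM (0.712).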

How the results depend on the processing

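The number of genes called between CAC and mock fat at 4 weeks was 1 in 21 of 24 alternatives. It was 0 with the stromal covariate and 0 without the urothelial libraries (3 against 3), and 1 when any single library was left out. In the fit of all 62 libraries the 1 gene called was Itih4, not Ccl8. Blocking on replicate number called 2 genes, Ccl8 and Wfdc21 (limma adjusted p 0.0197 and 0.0367). Same-numbered libraries did not deviate together (correlations 0.143, 0.2, -0.423, 0.0632 and -0.182), so the numbers were not taken as pairs. Flipping signs within replicate numbers gave Ccl8 the same log2 change of 3.01 with p = 0.0625, the smallest that the exact test of 5 pairs allows, and leaving out 1 library gave 2.75 to 3.16. The difference between 4 and 6 weeks gave 1 called gene after median-ratio rescaling. Leaving out single libraries gave 0 to 1 genes for 4 against 8 weeks (1 without CAC replicate 3 of 8 weeks), 0 to 1 for CAC against NCAC (1 without CAC replicate 1), and 0 to 0 for 4 against 2 and 4 against 6 weeks.

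Counts of genes without overlap, examined by setting after the data were seen, ranged from 16 to 37 above and 45 to 240 below when single libraries were left out (240 without CAC replicate 3, 186 without mock replicate 3). Without the urothelial libraries they were 154 above and 265 below, where fewer libraries make separation easier. With mitochondrially encoded genes left out they were 26 and 45. Read depth is unknown, which limits what can be said of genes near 1 TPM.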

Other observations

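Further gene groups were described in CAC against mock fat at 4 weeks, where 67.3% of all genes tested had a log2 change below 0 and the median was -0.08. All 24 oxidative phosphorylation genes were tested, with 17 log2 changes above 0, a median of 0.04 and 0 with an unadjusted limma p under 0.05. The 16 fatty acid oxidation genes had a median of 0.08, the 15 unfolded protein and stress genes -0.02 and the 15 circadian clock genes 0.11, each with 0 such genes. Cholesterol synthesis genes had 13 of 16 log2 changes below 0 (median -0.27). Endothelial markers were even, with 5 of 10 above 0 and sums of 451.8 to 633.4 TPM in CAC and 490.1 to 662.3 TPM in mock libraries. Mesothelial markers were all 8 below 0 (median -0.71), with Msln at 10.99 ± 5.01 against 35.5 ± 21.2 TPM (SD, n = 5). Their part in the other differences was not tested.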
